A study of Arabidopsis thaliana with 28 samples.

Results

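Shoots and roots of Arabidopsis thaliana seedlings were compared at 24 h after wounding, the latest of 7 times sampled. The comparison used 4 of the 28 arrays of the series, namely the 2 labelled as shoots and the 2 labelled as roots at 24 h, chosen by those labels alone. All plants were Col-0, the common laboratory accession (stock N1092), grown in Murashige and Skoog medium under 16 h days at 50% humidity. The stress treatment, puncturing with pins, began on day 16 after 3 h of light, so that the 24 h samples fall on the hour of the light period at which wounding had begun. Whether shoots, roots or both were punctured is not in the labels, and unwounded plants were not used here, so every value below belongs to wounded plants. Nor is it stated that the 2 replicates of a group were grown apart. The p-values therefore measure only the spread between the arrays at hand, and that spread may be technical. The number of arrays limits the precision.

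Green leaves and roots divide the work of the plant. Leaf cells hold chloroplasts, which capture light and fix carbon, and they load sucrose into the phloem, make guard cells and trichomes, and cover themselves with a cuticle. Root cells import that sugar, take up nutrients, build root hairs, lignified and suberised walls, and release phenolic compounds and defence proteins towards the soil. In Arabidopsis the endoplasmic reticulum bodies of roots store a β-glucosidase, PYK10, that acts in defence.

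RNA was hybridised to ATH1 arrays, which carry 1 probe set for most genes and give 1 linear signal per probe set. Differences are given as shoots minus roots on the scale log2(signal + 10.7), ± the standard error (SE) of the fit, with n = 2 arrays a group. A difference of 2 is 4-fold on that scale, which understates the change of weak signals. A call is an adjusted p under 0.05 from limma with Benjamini-Hochberg adjustment over 16263 probe sets. Pairs of signals are always given as replicate 1, then replicate 2. The level below which 40% of an array's probe sets lay was 24.2 to 24.6 in shoots and 28.8 to 29.0 in roots at 24 h, and a difference against a signal below it depends on the offset. Levels of different genes were not compared, since each probe set binds with its own strength.

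The replicates correlated over probe sets with r = 0.975 in shoots and r = 0.971 in roots at 24 h. The brightest 100 probe sets took 15.2% to 15.8% of the summed signal in shoots and 8.46% to 8.58% in roots. The 3′ to 5′ signal ratio of actin, a sign of RNA integrity, was 4.15 and 6.17 on the 2 shoot arrays of 24 h, above the 2.22 to 3.68 of the other 12 shoot arrays, and 2.06 to 2.21 on the root arrays of 24 h. Spiked-in hybridisation controls lay 0.91 higher (log2) in shoots than in roots at 24 h. Scaling the arrays to these controls therefore lowered every difference, and the median over all probe sets moved from -0.30 to -1.06, against -0.17 with quantile normalization. This scaling was tried after the data were seen. The part of RNA integrity in the results was not tested. Scalings tried were quantile normalization, the spiked-in controls and centring on the median difference. A called difference above 0.91 in favour of shoots kept its sign under all 3. Of the 4091 calls in favour of shoots, 3044 did so, and scaling to the spiked-in controls turned 1046 calls. Only some of the turned calls, those of genes described singly below, are named.

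At 24 h, 11612 of 16263 probe sets (71.4%) differed between the organs. Of these, 4091 (25.2% of those tested) were higher in shoots and 7521 (46.2%) higher in roots. The share of calls that were higher in shoots was 35.23% with the deposited scaling, 41.58% after quantile normalization and 15.76% after scaling to the spiked-in controls. Among the 1258 tested genes with a symbol, from which the named groups are drawn, 30.3% were higher in shoots and 44.7% in roots. Calls of at least 4-fold numbered 1363 (8.38%) in favour of shoots and 1073 (6.6%) in favour of roots. Signals lay above the 40th percentile on both arrays of both organs for 11156 probe sets, on both shoot arrays and neither root array for 1399, and on both root arrays and neither shoot array for 1367. Fewer cells of a type and less RNA per cell cannot be told apart in whole organs. A higher signal below is only a higher level relative to the other signals of the organ's arrays, under the deposited scaling.

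**Figure D1:**
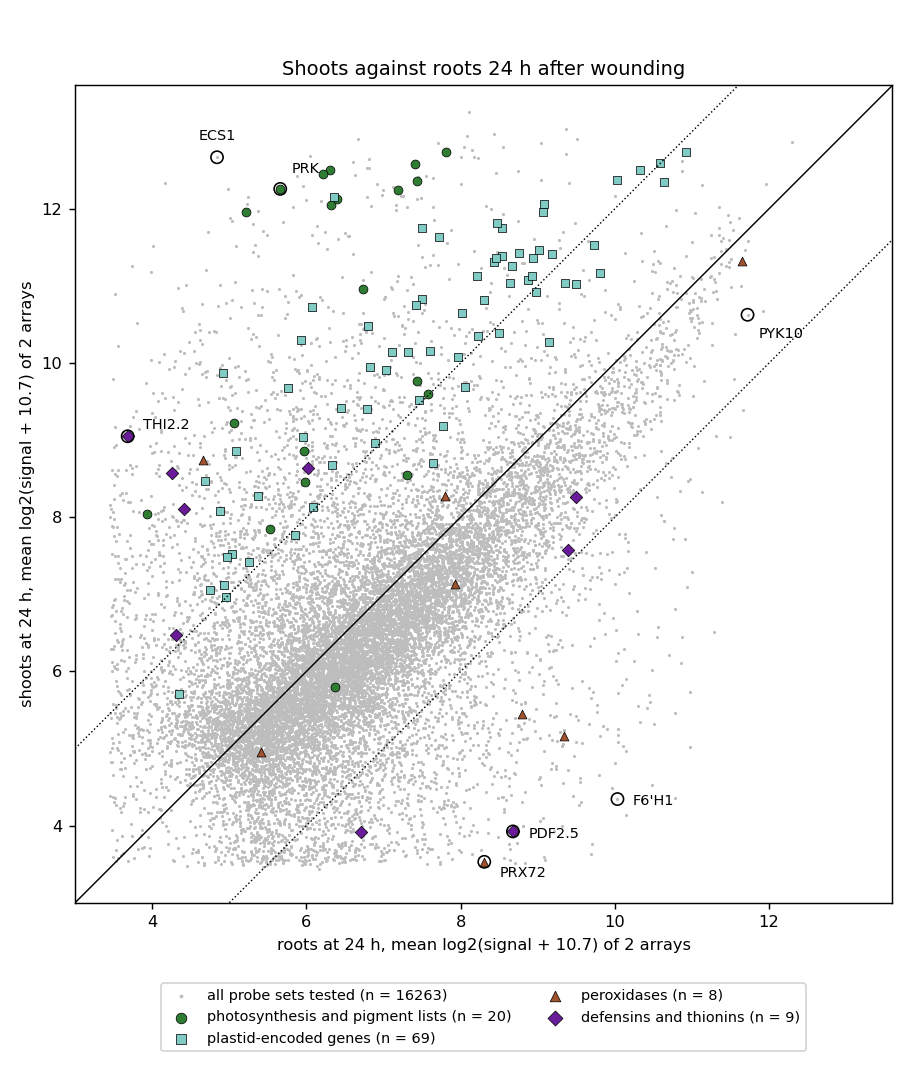
Mean signal of each of the 16263 probe sets in shoots (y axis) against roots (x axis) at 24 h, both as log2(signal + 10.7), mean of 2 arrays; the solid line marks equal signals and the dotted lines a 4-fold difference. Photosynthesis, pigment and plastid-encoded genes lie above the upper dotted line or between it and the line of equal signals, apart from 1 pigment gene (HEMA2), while peroxidases, defensins and thionins lie on both sides.

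Among genes with the largest differences in favour of shoots, ECS1, a protein studied in the response to the bacterium Xanthomonas, stood first. Its signals were 6267 and 6735 in shoots and 23.2 and 13.5 in roots, a difference of 7.83 ± 0.35 (adjusted p = 6.09e-13). Enzymes of carbon fixation were also among the 12 largest. SBPASE, sedoheptulose-bisphosphatase of the Calvin cycle, read 3673 and 4317 in shoots and 26.1 and 27.1 in roots (difference 6.74 ± 0.18, adjusted p = 2.63e-18). PRK, phosphoribulokinase, which makes the acceptor of carbon dioxide, read 4527 and 5271 in shoots and 36.8 and 43.1 in roots (6.6 ± 0.17). HPR, the peroxisomal hydroxypyruvate reductase of photorespiration, read 5739.9 and 5430.2 in shoots and 57.7 and 70.0 in roots (6.23 ± 0.20). Entry among the 12 largest required both arrays of the higher organ to lie above both of the lower and above their 40th percentiles. The root signals of ECS1 and SBPASE were below the 40th percentile of their arrays. CaS, a calcium-sensing protein of the thylakoid, and LHCB4.2, an antenna protein of photosystem II, differed by 6.19 ± 0.16 and 6.19 ± 0.20. The other 6 of the 12 largest, AT1G23130, AT1G09310, AT2G10940, AT1G66100, AT1G67865 and AT3G28270, carried no name in the annotation used, with differences of 7.51, 7.2, 6.71, 6.64, 6.33 and 6.30.

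The largest differences in favour of roots were in genes to which the annotation gives only a locus. Of the 12 largest, AT3G13610 has a name among the synonyms of the RefSeq gene table, F6'H1. It encodes the feruloyl-CoA hydroxylase that opens the path to scopoletin and the other coumarins that roots release. Its signals were 9.7 and 9.5 in shoots and 892 and 1206 in roots, a difference of -5.69 ± 0.29 (adjusted p = 1.49e-12), with both shoot arrays below the 40th percentile. The other 11 loci, from AT4G15390 (-6.42 ± 0.22) and AT3G01190 (-6.06 ± 0.16) to AT5G01870 (-5.24 ± 0.33), carried no name there either. Root signals of AT4G33720 were 517 and 1316, and those of AT2G19970 875 and 444, so the replicates of the higher organ differed from each other there, while shoots stayed at 4.5 and 1.3 and 5.1 and 5.4.

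The machinery of photosynthesis was higher in shoots throughout. All 7 tested genes of light harvesting and electron transport were called higher in shoots, with a median difference of 5.05, against -0.30 over all probe sets. They are the members, of 43 listed, that had a probe set with 1 named gene. LHCB4.1, like LHCB4.2 a monomeric antenna protein of photosystem II, read 6881 and 6691 in shoots and 187 and 243 in roots. Its paralogue LHCB4.3 read 463 and 746 in shoots and 19.8 and 26.1 in roots, a difference of 4.16 ± 0.18, the smallest of the 7. PSAN of this list and PSAE-1 outside it, both subunits of photosystem I, differed by 5.73 ± 0.16 and 6.0 ± 0.28. PSBY and PSBW, small subunits of photosystem II, differed by 5.72 ± 0.17 and 5.05 ± 0.27, and ATPC1, the γ subunit of the chloroplast ATP synthase, by 4.94 ± 0.23. No root array reached the level of a shoot array for any of these genes. PSB27, which serves the assembly and repair of photosystem II, differed by 4.82 ± 0.15. TROL, the thylakoid protein that binds ferredoxin:NADP reductase, differed by 4.31 ± 0.15.

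All 4 tested genes of the Calvin cycle and photorespiration were higher in shoots, with a median of 6.42. RCA, the activase that keeps Rubisco working, read 5822 and 6413 in shoots and 133 and 191 in roots, a difference of 5.17 ± 0.18. Its root signals were well above the 40th percentile, so that RCA was measured in both organs. Non-phosphorylating glyceraldehyde-3-phosphate dehydrogenase (ALDH11A3), a cytosolic enzyme that makes NADPH from photosynthetic triose phosphate, differed by 5.15 ± 0.24. AOR, which removes reactive carbonyls in the chloroplast, differed by 6.01 ± 0.18.

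Genes encoded in the plastid itself were higher in shoots for all 69 tested, with differences from 1.06 to 5.78 and a median of 2.51. psbA, the D1 protein of the photosystem II reaction centre, read 4495 and 4558 in shoots and 59.4 and 86.1 in roots (5.78 ± 0.34). ndhJ, a subunit of the plastid NADH dehydrogenase-like complex, read 794 and 1085 in shoots and 14.7 and 25.3 in roots (4.96 ± 0.20). psaA, a reaction centre protein of photosystem I, read 2085 and 3315 in shoots and 360.2 and 321 in roots (2.91 ± 0.26). These genes of the photosynthetic apparatus were separated by organ on all 4 arrays. The smallest differences lay in genes of the plastid's own expression machinery, among them rpoC2, a subunit of the plastid-encoded RNA polymerase, and rpl32, a ribosomal protein. rpoC2 read 264 and 618 in shoots and 198 and 181 in roots, a difference of 1.06 ± 0.27, and its call was lost without shoots replicate 2 (0.46). rpl32 differed by 1.14 ± 0.28, and its call too was lost without shoots replicate 2 (0.66). Shoot replicate 2 exceeded shoot replicate 1 for 61 of the 69 genes. Plastid-encoded genes took 3.38% and 4.34% of the summed signal on the 2 shoot arrays and 0.797% and 0.816% on the root arrays. The 20 tested nuclear genes of the photosynthesis, Calvin cycle and pigment lists took 1.71% and 1.73% in shoots and 0.060% and 0.068% in roots. These shares compare the organs within each set of genes. The sets cannot be compared with each other, since their probe sets differ in number and binding strength. 

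The nuclear genes of the plastid NADH dehydrogenase-like complex, which returns electrons to plastoquinone, moved the same way. All 8 tested subunits and factors were higher in shoots, with a median of 3.03. NdhL read 674 and 768 in shoots and 6.9 and 5.6 in roots (5.43 ± 0.14), and NdhN and NdhS differed by 4.69 ± 0.16 and 4.52 ± 0.22. Both root arrays were below the 40th percentile for NdhL and NdhN. The CRR proteins, factors for this complex, had differences from 1.08 (CRR22) to 3.43 (CRR42), and the call of CRR22 was lost without roots replicate 2 (0.75).

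Pigment synthesis was higher in shoots for 8 of 9 genes, with a median of 2.34. CHLM, which methylates magnesium protoporphyrin, read 1987 and 1969 in shoots and 81.4 and 113 in roots (4.22 ± 0.17). CHLI2, a subunit of the magnesium chelatase, read 263 and 242 in shoots and 6.8 and 2.5 in roots (4.11 ± 0.17). LYC, a lycopene cyclase of carotenoid synthesis, read 905 and 823 in shoots and 143 and 183 in roots (2.34 ± 0.15). Steps shared by chlorophyll and haem synthesis were also higher in shoots, by 1.25 ± 0.13 for GSA1, 2.02 ± 0.12 for HEMB1, 2.47 ± 0.15 for HEME1 and 2.9 ± 0.15 for HEME2. The exception was HEMA2, a glutamyl-tRNA reductase at the start of the path, with signals of 42.3 and 47.1 in shoots and 74.9 and 68.9 in roots and a difference of -0.58 ± 0.13 (adjusted p = 3.85e-04). It was the only gene of this list that was higher in roots, and its root signals lay above both shoot signals. LIL3:1, a light-harvesting-like protein of chlorophyll synthesis, differed by 4.99 ± 0.19.

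Thioredoxins, small proteins that reduce disulfides in target enzymes, differed in both directions. TRXF2, the f-type thioredoxin that activates Calvin cycle enzymes by light, read 432 and 421 in shoots and 21 and 19 in roots (3.83 ± 0.18). NTRC, a chloroplast NADPH-dependent thioredoxin reductase, read 832 and 835 in shoots and 68.8 and 70.5 in roots (3.39 ± 0.14). Thioredoxin y2 (ty2), also a plastid protein, read 491 and 764 in shoots and 58.7 and 43.1 in roots (3.35 ± 0.17), whereas its paralogue thioredoxin y1 (TY1) read 36.9 and 46 in shoots and 149 and 139 in roots (-1.57 ± 0.14). The y-type pair thus lay in opposite directions, without overlap of the organs in either gene. The mitochondrial o-type thioredoxins TO1 and TO2 were slightly higher in roots (-0.51 ± 0.15 and -0.50 ± 0.14), and both calls were lost without shoots replicate 1 (-0.33 and -0.36) or roots replicate 1 (-0.37 and -0.30), that of TO2 also after quantile normalization (-0.28). Of the 8 thioredoxins tested 5 were higher in shoots and 3 in roots.

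**Figure D2:**
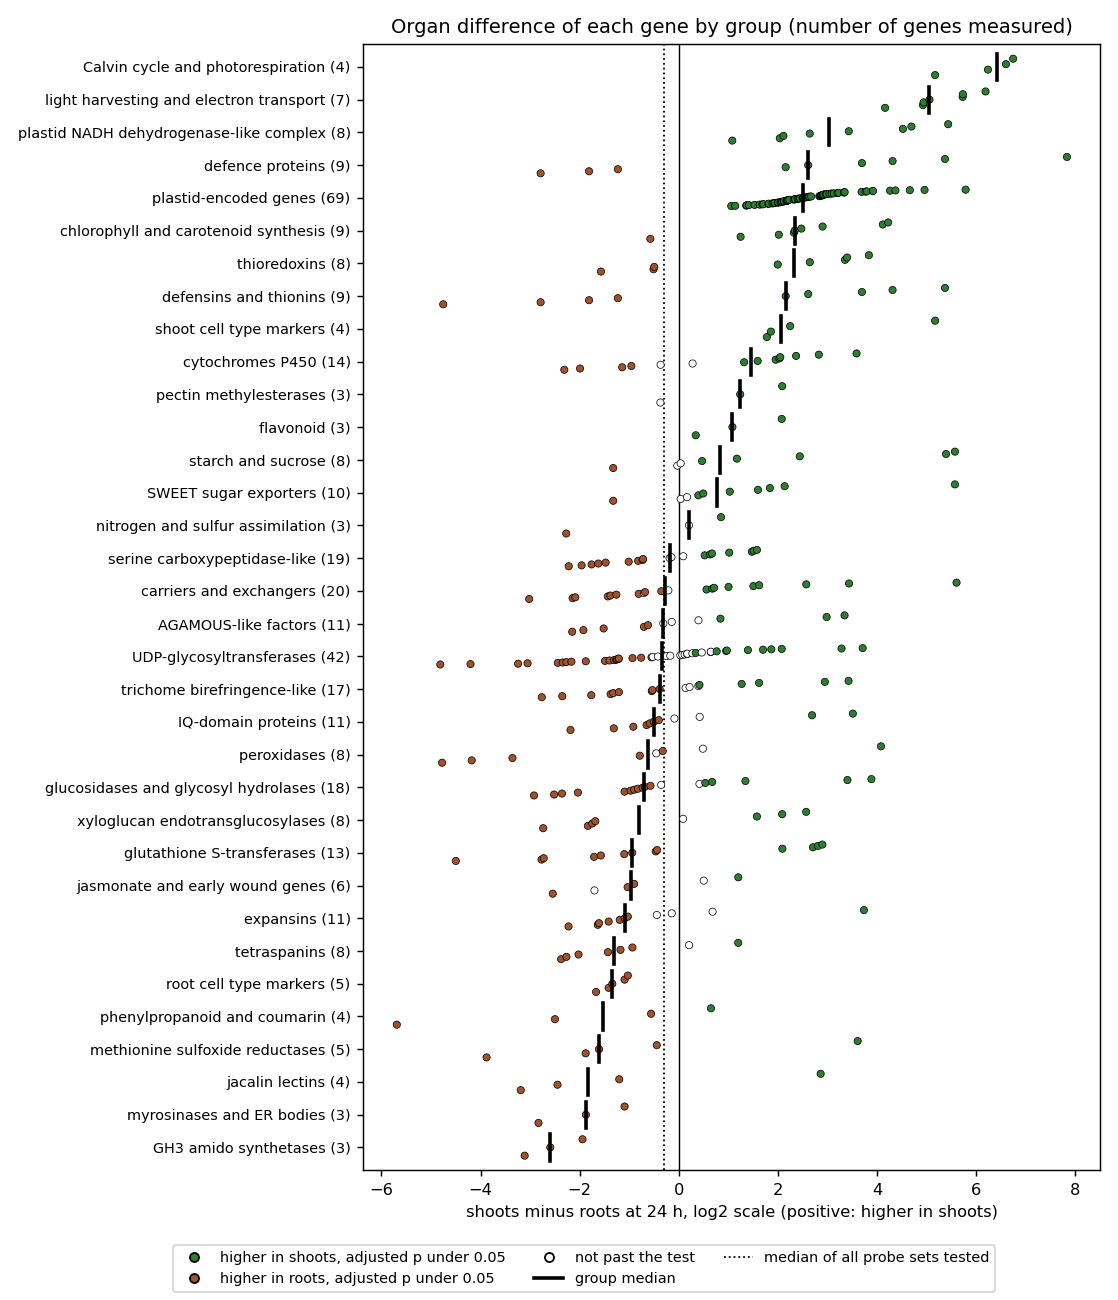
Differences between shoots and roots at 24 h (x axis, shoots minus roots on the log2(signal + 10.7) scale) for each tested member of the gene groups (rows), 1 point per gene, with the group's median. Light harvesting, Calvin cycle and plastid-encoded genes lie wholly to the right of 0, while expansins, conjugating enzymes and carriers spread to both sides.

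Sugar metabolism and export followed the photosynthetic organ in part. Of 8 tested genes of starch and sucrose, 5 were higher in shoots, 1 in roots and 2 were not called, with a median of 0.82. SPS4F, a sucrose phosphate synthase, read 1005 and 1039 in shoots and 13.3 and 14.6 in roots (5.39 ± 0.17, adjusted p = 4.59e-17). SWEET11, the sucrose exporter of the leaf phloem parenchyma, read 1453 and 1233 in shoots and 19.5 and 16.1 in roots (5.57 ± 0.29). Both genes were below the 40th percentile on both root arrays. SBE2.2, a starch branching enzyme, and APL3, a large subunit of ADP-glucose pyrophosphorylase, differed by 2.44 ± 0.16 and 1.17 ± 0.18. PWD (AT5G26570), which phosphorylates starch for its breakdown, read 139.7 and 169.5 in shoots and 106 and 111 in roots, and its call was lost without shoots replicate 2 (0.34) or roots replicate 1 (0.44) and its sign turned with spiked-in scaling (-0.36). DPE1, a plastid disproportionating enzyme, was measured at 59.2 and 54.1 in shoots and 68.9 and 48.7 in roots and did not pass the test (-0.03 ± 0.17).

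Of 10 SWEET sugar transporters, 7 were higher in shoots and 1 in roots. SWEET16, a transporter of the vacuolar membrane, read 53.2 and 73.1 in shoots and 240.3 and 123 in roots (-1.32 ± 0.21), the only member higher in roots. SWEET17, also of the vacuolar membrane, read 302 and 378 in shoots and 366 and 297 in roots, with overlapping organs (0.04 ± 0.14). SWEET1 differed by 2.13 ± 0.17, SWEET2 by 1.59 ± 0.21 and SWEET15 (SAG29), known from senescing leaves, by 1.84 ± 0.23. SWEET13 and SWEET6 were called at 0.39 and 0.49. Both turned sign with spiked-in scaling, and both lost their call without shoots replicate 2 (0.36 and 0.53), SWEET13 also without roots replicate 2 (0.34) and SWEET6 without shoots replicate 1 (0.45) or roots replicate 1 (0.28). TMT1, which carries hexoses into the vacuole, read 63.9 and 67.6 in shoots and 382 and 279.6 in roots (-2.14 ± 0.19). The fructan exohydrolase cwINV6 read 21.1 and 28 in shoots and 472 and 551 in roots (-3.89 ± 0.17). ICL, isocitrate lyase of the glyoxylate cycle, read 1.9 and 2.0 in shoots and 111 and 70.7 in roots (-2.98 ± 0.24). For these 3 genes both root arrays exceeded both shoot arrays.

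Sulfur and nitrogen genes gave few measured members. APS4, an ATP sulfurylase that activates sulfate, read 178 and 174 in shoots and 833 and 949.7 in roots (-2.27 ± 0.17, adjusted p = 9.51e-11), and was higher in roots. Its isoform APS3 read 202 and 256 in shoots and 184 and 78.8 in roots (0.85 ± 0.25, higher in shoots), and its call was lost without shoots replicate 2 (0.69) or roots replicate 2 (0.29). SIR, sulfite reductase, the next reductive step, read 440.3 and 554 in shoots and 362 and 506 in roots with overlapping organs and did not pass the test.

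Carriers were divided between the organs, 9 higher in shoots, 9 in roots and 2 not called of 20. NPF6.4 (AT3G21670), a nitrate transporter, read 1256 and 1159.8 in shoots and 15 and 13.8 in roots (5.6 ± 0.16, adjusted p = 7.64e-18). NPF6.2 (AT2G26690), the nitrate transporter of leaf petioles, read 456 and 505 in shoots and 53.6 and 95.5 in roots (2.57 ± 0.38). CHX20, a cation/proton exchanger of guard cells, read 123 and 102 in shoots and 0.78 and 0.63 in roots (3.43 ± 0.15). These carriers were higher on both shoot arrays. CHX16, a paralogue of CHX20, lay the other way, at 3.7 and 1.4 in shoots and 73.9 and 125 in roots (-3.02 ± 0.22). NPF5.13 (AT1G72125) and NPF4.3 (AT1G59740) of the same nitrate and peptide transporter family were higher in roots, by -1.38 and -1.26, and NPF3.1 (AT1G68570) in shoots, by 1.62. Of the calls in favour of shoots, those of TMT3, OCT5 and AT1G53210 (0.56, 0.67 and 0.71) turned sign with spiked-in scaling. Each of these was also lost when 1 array was left out, TMT3 without any of the 4 (0.45 to 0.66), OCT5 without shoots replicate 1 (0.30) or roots replicate 2 (0.55) and AT1G53210 without shoots replicate 2 (0.46) or roots replicate 2 (0.52). AT1G53210 also lost its call after quantile normalization (0.34). OCT1, an organic cation carrier, read 0.96 and 1.0 in shoots and 33.3 and 45.6 in roots (-2.09 ± 0.19).

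The glucosinolate transporters GTR1 and GTR2, which move these defence compounds between organs, were split. GTR2 read 211 and 174 in shoots and 574 and 500.2 in roots (-1.43 ± 0.15) and was higher in roots. GTR1 read 370.1 and 349 in shoots and 351 and 83.7 in roots, so that root replicate 1 lay between the shoot arrays. Its difference of 1.0 ± 0.39 was called, and the call was lost without either shoot array (0.96 and 1.04) or without roots replicate 2 (0.033). ZIP9, a zinc transporter-like protein and the single measured gene of the ion transport list, was near the 40th percentile in both organs and did not pass the test (0.03 ± 0.21). No aquaporin of the list could be measured by a probe set of a single named gene.

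Cell wall genes differed in both directions. Among 11 expansins, proteins that loosen the wall, 1 was higher in shoots, 7 in roots and 3 were not called, with a median of -1.09. EXPA8 read 653 and 669 in shoots and 40.9 and 38.8 in roots (3.73 ± 0.35, adjusted p = 2.21e-08), the one member that was higher in shoots. EXPA4 read 68 and 97.3 in shoots and 400.2 and 442 in roots (-2.23 ± 0.23), and EXPB3 differed by -1.64 ± 0.28. EXPA7 and EXPA18 are expansins of growing root hairs. EXPA18 read 15 and 14.2 in shoots and 48.9 and 65.8 in roots (-1.42 ± 0.23). EXPA7 read 17.7 and 11.3 in shoots and 45.9 and 35.2 in roots (-1.03 ± 0.30), and its call was lost without shoots replicate 2 (-0.84). EXLA1, EXLA2 and EXPB1 did not pass the test, and root replicate 1 was above root replicate 2 for EXLA1 (364 and 69.4), EXLA2 (37.8 and 12.6) and EXLA3 (109.5 and 18.1), whose call in favour of roots was lost without roots replicate 1 (-0.58).

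Xyloglucan endotransglucosylases, which cut and rejoin the xyloglucan that ties cellulose fibrils, were higher in shoots for 3 of 8 and in roots for 4. XTH32 read 222 and 376 in shoots and 44.3 and 36 in roots (2.57 ± 0.22). XTH27 (EXGT-A3) and XTH16 differed by 2.08 ± 0.19 and 1.57 ± 0.24. XTH18 read 20.8 and 7.8 in shoots and 199 and 113 in roots (-2.74 ± 0.45), and XTH19, XTH20 and XTH21 differed by -1.84 ± 0.45, -1.75 ± 0.19 and -1.68 ± 0.24. The organs did not overlap in any of these 7 genes. XTH18 and XTH19 are near-identical in sequence and may share signal, as may the pairs PDF1.2 and PDF1.2b, JAL33 and JAL34, and GSTU25 and GSTU26 named below, which was not tested.

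TRICHOME BIREFRINGENCE-LIKE (TBL) proteins, a family that acetylates wall polysaccharides, were higher in shoots for 5 of 17 and in roots for 9, near the shares over all probe sets (25.2% and 46.2%). TBL45 read 535 and 583 in shoots and 55.2 and 32.1 in roots (3.42 ± 0.21) and TBL26 differed by 2.94 ± 0.22. TBL36 read 65.5 and 77.9 in shoots and 641 and 469 in roots (-2.77 ± 0.24) and TBL39 differed by -2.35 ± 0.16. The call of TBL37 (1.27 ± 0.36) was lost without shoots replicate 1 (0.78) or roots replicate 2 (0.98), and that of AT2G31110 (0.42) was lost without shoots replicate 1 (0.39) or roots replicate 1 (0.22) and turned sign with spiked-in scaling. Among pectin methylesterases, which remove methyl groups from pectin, PMEPCRF read 479.9 and 419 in shoots and 106 and 89.9 in roots (2.08 ± 0.17), and PME61 differed by 1.24 ± 0.20. Both were higher in shoots, and the third member did not pass the test. GH9C1, an endoglucanase of root hairs and the elongating root, read 8.4 and 3.1 in shoots and 78.4 and 86.2 in roots (-2.52 ± 0.18). RALFL27 and RALFL32, peptides related to the growth signal RALF, differed by -2.69 ± 0.24 and -1.99 ± 0.20, in favour of roots.

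The surface layers gave 1 measured gene each. WSD1, the wax ester synthase of the cuticle, read 84 and 34.7 in shoots and 1.6 and 0.38 in roots (2.49 ± 0.29, adjusted p = 1.22e-07). FACT, which joins caffeic acid to the fatty alcohols of root waxes and suberin, read 33.3 and 29.4 in shoots and 320.2 and 347 in roots (-3.03 ± 0.19, adjusted p = 4.79e-12). Neither gene's organs overlapped. WSD1 lay below the 40th percentile on both root arrays, whereas FACT lay above it on all 4.

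Peroxidases oxidise phenolic compounds in walls and remove hydrogen peroxide, and 5 of 8 tested were higher in roots, 1 in shoots. PRX72 (AT5G66390), a peroxidase of lignin formation, read 0.88 and 0.82 in shoots and 341 and 275 in roots (-4.78 ± 0.16, adjusted p = 8.35e-17). Prx37 and PRX25 (AT2G41480) differed by -4.18 ± 0.41 and -3.36 ± 0.22. The exception was TAPX, the thylakoid ascorbate peroxidase, at 363 and 475 in shoots and 19.8 and 10.2 in roots (4.08 ± 0.20). SAPX, the ascorbate peroxidase of the stroma and mitochondria, read 150.2 and 112 in shoots and 218 and 247 in roots and was slightly higher in roots (-0.79 ± 0.15). The 2 plastid ascorbate peroxidases therefore lay on opposite sides. UPB1 (UPBEAT1), a transcription factor that represses peroxidase genes in the growing root, read 15.5 and 1.1 in shoots and 146 and 146 in roots (-3.16 ± 0.32).

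Of the phenylpropanoid and coumarin genes, 3 of 4 were higher in roots. F6'H1 was described above, and its paralogue F6'H2 (AT1G55290) read 18.5 and 21 in shoots and 34.1 and 34.2 in roots, a small difference of -0.56 ± 0.24 whose call was lost without any 1 of the 4 arrays (-0.50 to -0.62) and after quantile normalization (-0.40). CCR2, a cinnamoyl-CoA reductase on the way to lignin, read 18.9 and 10.2 in shoots and 150.2 and 112 in roots (-2.5 ± 0.26). HCT, a shared enzyme of lignin precursors, read 1066 and 1223 in shoots and 652 and 807 in roots, and its call in favour of shoots (0.65 ± 0.18) turned sign with spiked-in scaling (-0.25) and was lost after quantile normalization (0.34). UGT72E2, which puts glucose on the lignin precursors coniferyl and sinapyl alcohol, read 36.6 and 36.5 in shoots and 655 and 1129 in roots (-4.2 ± 0.20). Its relatives UGT72E1 and UGT72E3 were also higher in roots, by -2.17 ± 0.16 and -1.88 ± 0.22.

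The 3 measured flavonoid genes were higher in shoots, with a median of 1.08. UGT78D1, which adds rhamnose to flavonols, read 173 and 246 in shoots and 54.2 and 30.2 in roots (2.07 ± 0.20). DFR, dihydroflavonol reductase of anthocyanin synthesis, differed by 1.08 ± 0.29. UGT78D2, a flavonoid glucosyltransferase, read 176 and 151 in shoots and 117 and 137 in roots (0.34 ± 0.14). The call of UGT78D2 was lost without shoots replicate 1 or roots replicate 1 (both 0.24), and its sign turned with spiked-in scaling (-0.50). TPS-CIN, the terpene synthase that makes cineole, read 9.6 and 0.54 in shoots and 265 and 311 in roots (-4.3 ± 0.28, adjusted p = 1.63e-11), with both shoot arrays below the 40th percentile.

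All 9 measured defence proteins differed between the organs. Of these, 6 were higher in shoots and 3 in roots, with a median of 2.61. THI2.2, a thionin, a small antimicrobial peptide rich in cysteine, read 508 and 530.3 in shoots and 2.1 and 2.2 in roots (5.37 ± 0.23, adjusted p = 5.41e-15), and THI2.1 differed by 2.15 ± 0.22. PDF1.2, the plant defensin that jasmonate and ethylene induce, read 509.6 and 135 in shoots and 11.9 and 9.4 in roots (3.69 ± 1.0), and PDF1.2b read 835 and 161 in shoots and 11.6 and 5.8 in roots (4.31 ± 1.22). Shoot replicate 1 was far above shoot replicate 2 for both, and without it the calls were lost (2.78 and 3.16). PDF1.4 differed by 2.61 ± 0.46.

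Other defensins lay on the root side. PDF2.5 read 5.2 and 3.8 in shoots and 438 and 363 in roots (-4.75 ± 0.17, adjusted p = 2.09e-16). PDF2.1 read 3.8 and 5.1 in shoots and 129 and 67.2 in roots (-2.79 ± 0.26). LCR69 and LCR68 were high in both organs and differed by -1.81 ± 0.21 and -1.23 ± 0.27. Over all 9 defensins and thionins tested, 5 were higher in shoots and 4 in roots, and in these data the PDF1 genes and thionins lay on one side and the PDF2 genes and LCR68 and LCR69 on the other. OSM34, osmotin, an antifungal protein of the thaumatin family, read 120.5 and 52.5 in shoots and 2012 and 3067 in roots (-4.78 ± 0.70). PR-1-LIKE, of the family of the pathogenesis-related protein PR-1, differed by -3.93 ± 0.45. CHI, annotated as a chitinase, read 74.2 and 35.2 in shoots and 362 and 709 in roots (-3.05 ± 0.89), and its call was lost without roots replicate 2 (-2.58).

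**Figure D3:**
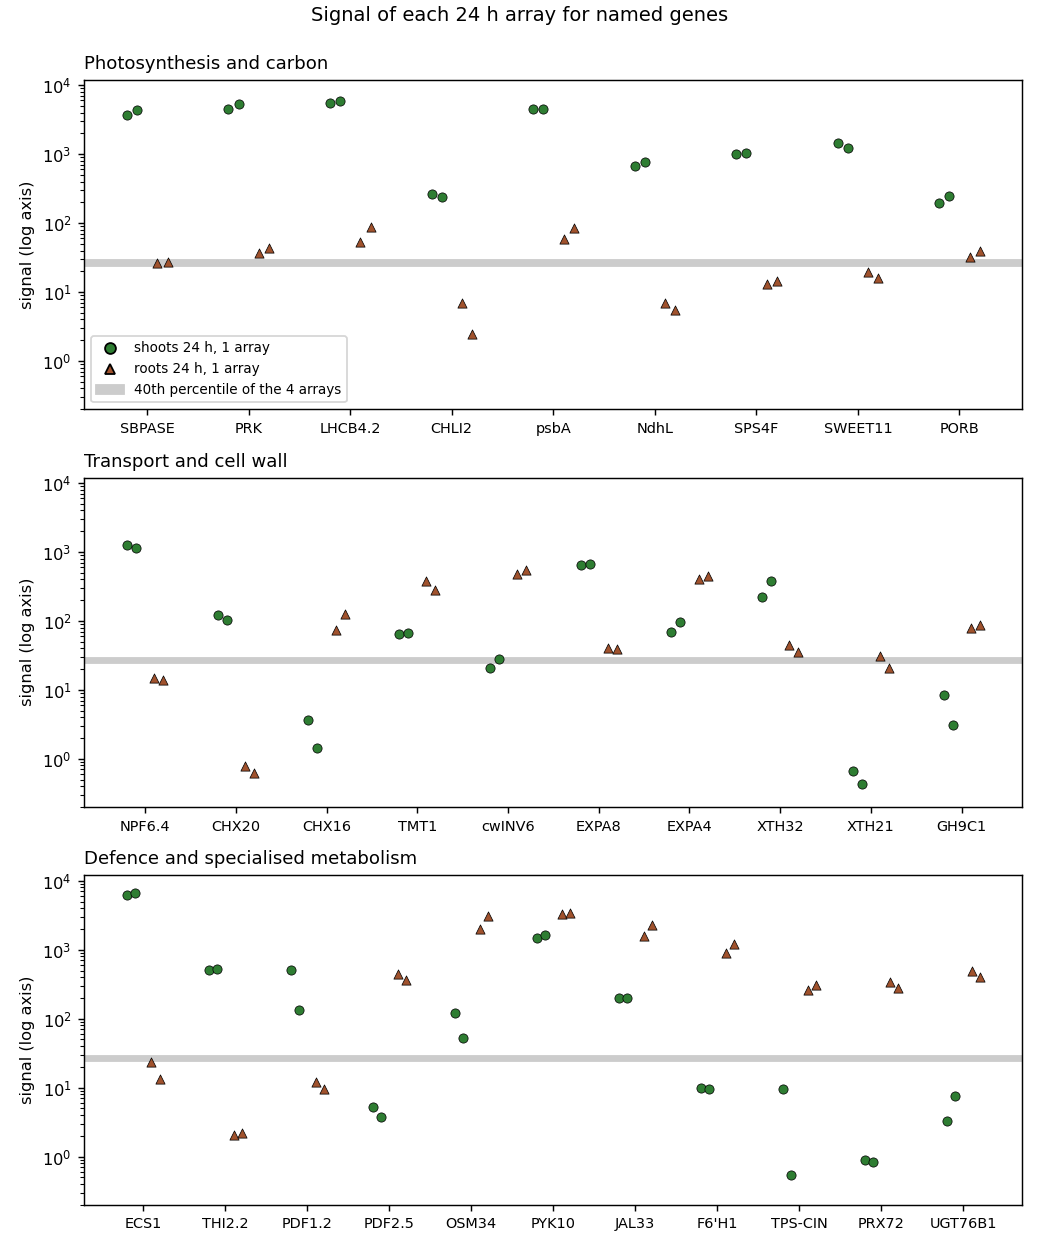
Signal on each of the 4 arrays of 24 h (log axis) for genes named in the text, with circles for the 2 shoot arrays and triangles for the 2 root arrays; the grey band spans the 40th percentiles of these arrays. For every gene drawn the organs are separate, the shoot signals of PDF1.2 are far apart (510 and 135), and low signals reach below the band.

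The endoplasmic reticulum body genes were higher in roots for all 3 measured. PYK10, the β-glucosidase stored there, read 1504 and 1635 in shoots and 3321 and 3407 in roots (-1.1 ± 0.12, adjusted p = 7.38e-08), so its signal in shoots was also strong. NAI2, which forms the bodies, read 128 and 164 in shoots and 954 and 1266 in roots (-2.83 ± 0.19), and NAI1, the transcription factor that controls them, differed by -1.88 ± 0.25. Jacalin-related lectins, sugar-binding proteins of which some bind PYK10, were higher in roots for 3 of 4. JAL33 read 203 and 197 in shoots and 1585 and 2301 in roots (-3.19 ± 0.19), and JAL34 and JAL22 differed by -2.45 ± 0.22 and -1.2 ± 0.17. JAL23 read 126 and 169 in shoots and 11 and 10.8 in roots (2.86 ± 0.22), the exception. Of the glucosinolate genes, BCAT4, which starts methionine chain elongation, read 1137 and 1572 in shoots and 1004 and 1535 in roots and did not pass the test. UGT74B1, the glucosyltransferase of glucosinolate synthesis, differed by -0.55 ± 0.19, and its call was lost without shoots replicate 1 (-0.46) or roots replicate 1 (-0.30).

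Conjugating enzymes, which attach sugars or glutathione to small molecules, were divided within each family. Of 42 UDP-glycosyltransferases tested, 11 were higher in shoots, 19 in roots and 12 were not called, close to the shares over all probe sets (25.2% and 46.2%). UGT76B1, which glucosylates isoleucic and salicylic acid, read 3.3 and 7.6 in shoots and 485 and 396 in roots (-4.81 ± 0.22, adjusted p = 2.27e-14). UGT73D1 read 8.2 and 4.9 in shoots and 132 and 175 in roots (-3.24 ± 0.25). On the shoot side UGT88A1 read 1181 and 1192 in shoots and 70.5 and 92.9 in roots (3.71 ± 0.21), and UGT76E11 read 150.2 and 104 in shoots and 5.7 and 1.2 in roots (3.28 ± 0.24). All of these were separated by organ. Calls of 2 members, UGT78D2 and UGT74D1, turned sign with spiked-in scaling.

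Of 13 glutathione S-transferases, 9 were higher in roots and 4 in shoots, and none was left without a call. GSTU22 read 10.9 and 7.3 in shoots and 526 and 360.3 in roots (-4.5 ± 0.19, adjusted p = 3.15e-15), and GSTU26 and GSTU25 differed by -2.77 ± 0.27 and -2.73 ± 0.21. GSTU16 read 326 and 237 in shoots and 25.7 and 30.7 in roots (2.89 ± 0.19), and GSTU18 and GSTL3 differed by 2.8 ± 0.17 and 2.7 ± 0.14. Of 14 cytochromes P450, mono-oxygenases of which 12 belong here to the CYP71B group, 8 were higher in shoots and 4 in roots. CYP71B5 read 138 and 128 in shoots and 2.1 and 0.5 in roots (3.58 ± 0.15), and CYP71B24 differed by 2.36 ± 0.29. CYP71B6, by contrast, differed by -1.14 ± 0.23.

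β-Glucosidases and other glycosyl hydrolases, which release sugars from glucosides and wall polymers, were higher in shoots for 5 of 18 and in roots for 11. BGLU40 read 505 and 508 in shoots and 25.1 and 23.6 in roots (3.88 ± 0.17), and BGLU33 and BGLU44 differed by 3.4 ± 0.17 and 1.34 ± 0.20. BGLU46, a glucosidase that acts on lignin precursor glucosides, read 30.1 and 11.1 in shoots and 296 and 156 in roots (-2.92 ± 0.31), and BGLU15 differed by -2.36 ± 0.16. GH9B7 and GH9A3, called at 0.53 and 0.67, turned sign with spiked-in scaling. Of 5 methionine sulfoxide reductases, which repair oxidised methionine, 4 were higher in roots. MSRB9 read 55.9 and 35.3 in shoots and 996 and 649 in roots (-3.88 ± 0.23), and MSRB6 read 586 and 736 in shoots and 50.0 and 38.7 in roots (3.61 ± 0.25), the exception.

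Genes of 1 family that lie next to each other on the chromosome often arose by duplication, and their values were set side by side. In the gene order of the TAIR10.1 assembly, 29 such neighbouring pairs of tested genes lay in 11 of the families described here. Both genes were called in the same direction in 12 pairs, 9 of them higher in roots and 3 in shoots, and in opposite directions in 10. Among the pairs of the same direction, XTH18 and XTH19, JAL33 and JAL34, and GSTU25 and GSTU26 may share signal. The other 7 had at least 1 gene that was not called. Of calls over all probe sets, 35.23% were higher in shoots, so unrelated genes would often lie in opposite directions too. Whether neighbours differ from unrelated genes in this was not tested. MSRB5 read 213 and 298 in shoots and 839 and 1090.1 in roots (-1.88 ± 0.18), against 3.61 for its neighbour MSRB6. CYP71B37 read 19.5 and 18.3 in shoots and 121 and 153 in roots (-2.31 ± 0.15). Next to it, CYP71B36 read 79.3 and 66.4 in shoots and 1.4 and 0.77 in roots (2.82 ± 0.23). In both pairs each gene had its higher signals on the 2 arrays of 1 organ and no overlap.

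The glutathione transferases GSTU22, GSTU21 and GSTU20 lie in a row. GSTU22 and GSTU21 were higher in roots (-4.5 and -1.71). GSTU20 read 576 and 1211 in shoots and 148 and 239 in roots (2.09 ± 0.29), higher in shoots. UGT71C5, UGT71C4 and UGT71C3 also lie in a row, with differences of -1.4, 0.97 and -2.34, so that the middle gene lay opposite to both neighbours. The remaining opposite pairs were CYP71B22 and CYP71B23 (1.32 and -1.99), CYP71B28 and CYP71B29 (1.59 and -0.96), UGT85A5 and UGT85A2 (1.86 and -1.26), UGT84A3 and UGT84A4 (0.95 and -1.21), and scpl26 and scpl28 (0.67 and -1.76). scpl26 turned sign with spiked-in scaling (-0.18), and the same scaling ended the calls of UGT71C4 (0.095) and UGT84A3 (0.38), on which 3 of the 10 opposite pairs rest. At the other 6 times, on other arrays, both genes of all 10 opposite pairs kept their signs.

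**Figure D4:**
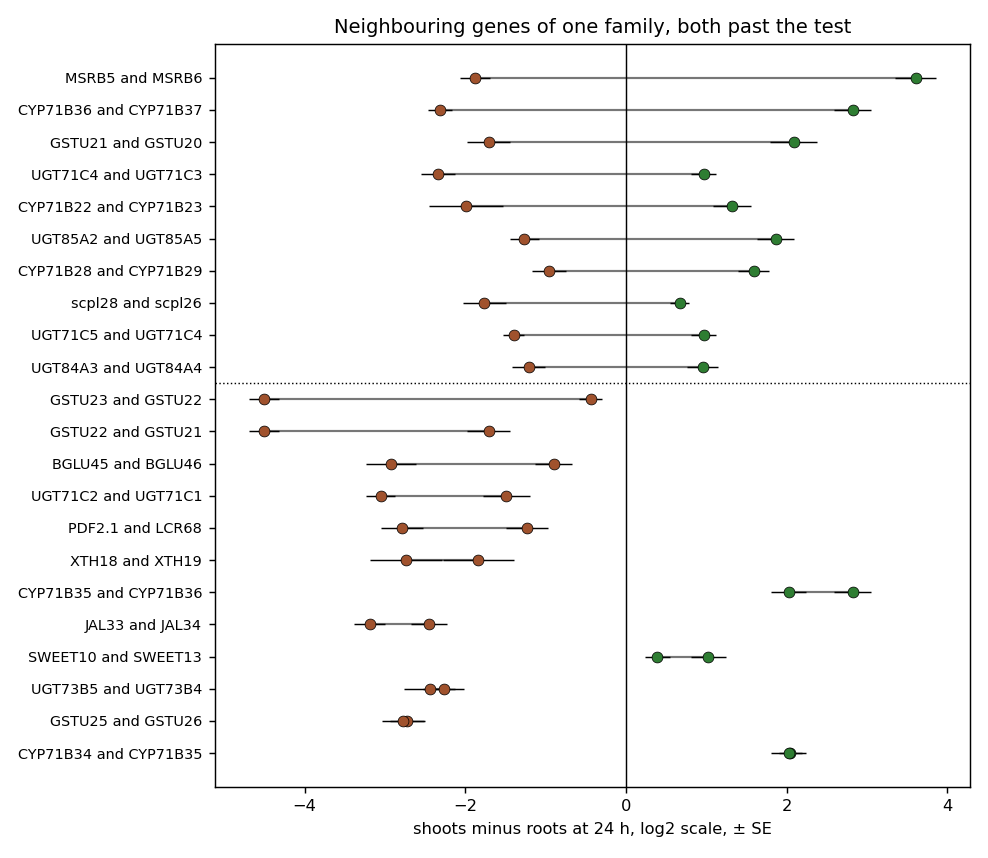
Differences between shoots and roots at 24 h (shoots minus roots, log2(signal + 10.7) scale) with bars of ± SE, for the neighbouring pairs of 1 family in which both genes were called, a line joining the genes of a pair. The 10 pairs above the dotted line are called in opposite directions, with MSRB5 at -1.88 and MSRB6 at 3.61 the widest apart among them, and the 12 below it in the same direction.

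Cell type markers went with the labelled organs. All 5 tested root markers of 17 listed were higher in roots, with a median of -1.34, against 46.2% of all probe sets. All 4 tested shoot markers of 20 listed were higher in shoots, with a median of 2.05, against 25.2%. Of the shoot markers, 6 had a probe set of 1 named gene, and the others of these did not pass the signal filter. A marker with low signals in 1 organ could pass that filter only through the other organ, so its direction was partly set in advance. FAMA (FMA), the factor that completes guard cell formation, read 65.2 and 68.7 in shoots and 11.3 and 12.7 in roots (1.77 ± 0.15). YAB5 and YAB3, factors of the lower leaf side, differed by 2.24 ± 0.17 and 1.86 ± 0.19. LBD16 and LBD29, factors of lateral root formation, read 22.9 and 17.8 in shoots and 70.0 and 65.8 in roots and 1.9 and 2.2 in shoots and 45.2 and 18.7 in roots respectively. The organs did not overlap for any of the 9 markers. STOMAGEN (EPFL9), the mesophyll peptide that promotes stomata, read 294 and 319 in shoots and 0.52 and 2.6 in roots (4.7 ± 0.15). TRY, a repressor of trichome fate, differed by 2.47 ± 0.24. SIM, a cell cycle inhibitor known from endoreduplicating trichomes, read 25.2 and 30.2 in shoots and 281 and 273 in roots (-2.91 ± 0.14), higher in roots.

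Regulators of development included genes of both directions. AGL24, a MADS-domain promoter of flowering, read 107 and 124 in shoots and 1.6 and 1.8 in roots (3.34 ± 0.14). AGL21 and AGL42, MADS-domain factors of the root, differed by -2.15 ± 0.15 and -1.93 ± 0.20. Of 11 AGAMOUS-like factors tested, 3 were higher in shoots and 5 in roots, near the shares over all probe sets (25.2% and 46.2%). The 3 GH3 enzymes tested, which join auxin to amino acids, were all higher in roots. GH3.17 read 43.6 and 33.1 in shoots and 395 and 427 in roots (-3.11 ± 0.18), and GH3.3 and GH3.5 (WES1) differed by -2.59 ± 0.28 and -1.94 ± 0.20. ATC, a relative of the flowering inhibitor TERMINAL FLOWER 1, read 2.7 and 2.3 in shoots and 107 and 115 in roots (-3.2 ± 0.17). GSO1, a receptor kinase of the Casparian strip and the embryonic cuticle, differed by -2.13 ± 0.16, and the subtilase SBT4.12 by -4.52 ± 0.22.

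Membrane and signalling families varied in the same mixed way. Of 8 tetraspanins, membrane proteins with roles in cell communication, 6 were higher in roots and 1 in shoots. TET2 read 45.7 and 45.3 in shoots and 285 and 277 in roots (-2.38 ± 0.15), and TET10 read 113 and 93.7 in shoots and 39.6 and 38.2 in roots (1.2 ± 0.19). Of 11 IQ-domain proteins, which bind calmodulin, 7 were higher in roots and 2 in shoots, with IQD24 at 3.51 ± 0.24 and IQD18 at -2.19 ± 0.20 as the extremes. Of 19 serine carboxypeptidase-like genes, 9 were higher in roots and 7 in shoots, 3 of the latter turning sign with spiked-in scaling, with differences from -2.22 (scpl16) to 1.57 (scpl42), and the share in roots was near that over all probe sets (46.2%). Genes of low oxygen were both higher in roots. HRA1 (AT3G10040), a regulator of the hypoxia response, read 13.4 and 0.83 in shoots and 87.1 and 32.6 in roots (-1.96 ± 0.51), and its call was lost without roots replicate 1 (-1.38). PDC2, a pyruvate decarboxylase of fermentation, read 116 and 79.4 in shoots and 161 and 193 in roots (-0.81 ± 0.26), and its call was lost without shoots replicate 2 (-0.56) or roots replicate 2 (-0.68).

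The organ difference at 24 h was then compared with the mean organ difference at 0.25, 0.5, 1, 3, 6 and 12 h, measured on the other 24 arrays. Samples of 3, 6 and 12 h were taken at other hours of the day than those of 24 h. Time after wounding and hour of the day therefore cannot be told apart in this comparison. Nor can RNA integrity be told apart from 24 h in shoots. The actin 3′ to 5′ ratio was 4.15 to 6.17 on the shoot arrays of 24 h and 2.22 to 3.68 on the other shoot arrays. That of GAPDH was 1.32 to 1.59 and 1.07 to 1.28. The spiked-in controls differed between organs by 0.91 at 24 h and 0.50 at the other times. The part of these in the changes was not tested. At those times 14188 probe sets (87.2%) were called, 5058 (31.1%) higher in shoots and 9130 (56.1%) in roots, with 12 arrays an organ. Of the 2436 calls of at least 4-fold at 24 h, 2424 were called in the same direction at the other times. Of 11097 probe sets called in both, 198 were called in opposite directions. The change of the organ difference passed the test for 1992 probe sets (12.2%), 887 (5.45%) more towards shoots at 24 h and 1105 (6.79%) more towards roots. A change of at least 1 on the log2 scale was found for 150 (0.922%) and 364 (2.24%). Without shoots replicate 1 of 24 h 1140 probe sets passed, and without roots replicate 1 of 24 h 1212. Without shoots replicate 2 of 24 h, changes of at least 1 towards shoots numbered 234.

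Of 6 measured genes of the jasmonate and early wound list, 4 had a lower shoot-minus-root difference at 24 h than at the other times, against 6.79% of all probe sets, and the list's median was -0.97 at 24 h and 0.55 at the other times. The list holds 23 genes and was chosen with earlier results of these data known, so its count is not independent of them. STZ (ZAT10), a zinc finger repressor that many stresses induce, read 36.6 and 40.7 in shoots and 389 and 196 in roots at 24 h (-2.54 ± 0.26). At the other times STZ ranged over 44.7 to 2076 (median 147) in shoots and 167 to 396 (median 254) in roots, and its difference changed by -2.3 ± 0.28 (adjusted p = 2.90e-05). Both shoot arrays of 24 h were thus below all 12 earlier shoot arrays, and the root arrays lay within their earlier range. OPCL1, a ligase of jasmonate synthesis, read 82.3 and 108 in shoots and 308 and 134 in roots, and changed from 0.98 at the other times to -1.03 ± 0.26, with the call at 24 h lost without roots replicate 1 (-0.47). WRKY53, a factor of senescence and defence, and ORA47, a factor that jasmonate induces early, changed by -1.03 ± 0.22 and -1.15 ± 0.32, the latter lost without shoots replicate 1 (-0.92) or roots replicate 1 (-0.78) and with log2(signal + 1) (-1.3). Against 3, 6 and 12 h alone neither change was called (-0.51 for both genes). JMT, which methylates jasmonate, read 19.3 and 26.9 in shoots and 4.0 and 3.9 in roots and kept its difference (1.2 against 1.26).

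Root replicate 1 was above root replicate 2 in several of these genes. It was the higher for 5 of the 6 wound genes, among them JMT with nearly equal signals (3.99 and 3.88), and CML38, a calmodulin-like protein of wounding, read 257 and 21.7 on the 2 root arrays and did not pass the test between organs (adjusted p = 0.065). Among the 163 genes that moved by at least 1 towards roots, root replicate 1 was the higher for 137 (84.0%), by over 2-fold for 47, against 49.8% of 8787 genes in all. 77 of them were higher in shoots at the other times and not at 24 h. For 160 of the 163 the mean shoot signal at 24 h lay below the shoot median of the other times. The mean root signal at 24 h lay above the root median of the other times for 124. The 163 genes were chosen by the change in these same values. The counts of 77, 160 and 124 therefore follow in part from that choice, and they were not made over all genes. The part of root replicate 1 in this result was not tested beyond leaving it out, which gave 295 probe sets with a change of at least 1 towards roots in place of 364.

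**Figure D5:**
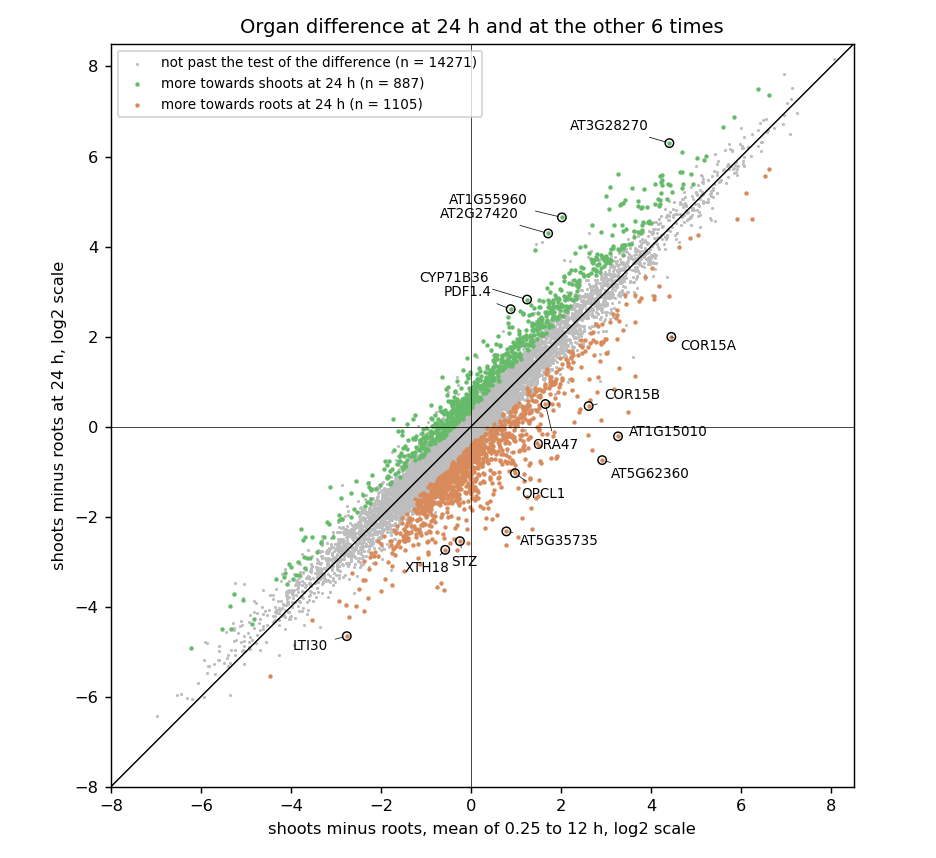
Organ difference at 24 h (y axis) against its mean over 0.25 to 12 h (x axis), both shoots minus roots on the log2(signal + 10.7) scale, 1 point per probe set, with named genes circled and probe sets coloured where the change passed the test. Most probe sets lie near the line of equal differences, and STZ, OPCL1, ORA47, COR15A and COR15B lie below it.

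COR15A, COR15B, COR47 and LTI30, known to respond to cold or drought and named here after their values were seen, also had a lower difference at 24 h. COR15A, a protein that protects chloroplast membranes in the cold, read 44.9 and 50.5 in shoots and 7.9 and 0.85 in roots at 24 h, against 32.7 to 3700.1 (median 478) in shoots earlier. Its difference fell from 4.45 to 1.99 ± 0.46, a change that was not called with log2(signal + 1) (-2.16). COR15B went from 2.61 to 0.46, a change not called against 0.25, 0.5 and 1 h alone (-0.75), and the dehydrins COR47 and LTI30 (XERO2) from -0.06 to -1.65 and from -2.76 to -4.65. LTI30 read 27.4 and 27.2 in shoots and 1361 and 658 in roots at 24 h, with root replicate 1 again the higher. Of the 6 largest changes towards roots, all in genes with no name, AT5G62360 changed by -3.66 ± 0.65, AT1G15010 by -3.48 ± 0.36 and AT5G35735 by -3.11 ± 0.21. AT5G62360 read 10.2 and 1.4 in shoots and 46.6 and 1.7 in roots, so that root replicate 1 alone lay above the 40th percentile. The other 3 were AT3G01830, AT1G51090 and AT5G65300 (-1.56, -0.18 and -2.26 at 24 h).

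Changes towards shoots at 24 h were led by AT1G55960 and AT2G27420, which have no name. AT1G55960 read 2252 and 2163 in shoots and 74.6 and 81.1 in roots and went from 2.02 to 4.65 ± 0.13 (change 2.63 ± 0.14, adjusted p = 1.40e-10). AT2G27420 went from 1.71 to 4.29 ± 0.21, AT3G28270 from 4.41 to 6.3 and AT1G60590 from 2.68 to 4.49. AT2G37130 stayed higher in roots but less so, at -1.34 against -3.12, and its call at 24 h was lost without shoots replicate 2 (-1.01) or roots replicate 1 (-0.98). Its change was not called against 3, 6 and 12 h alone (0.79), nor without shoots replicate 1 (1.45) or roots replicate 2 (1.42). PDF1.4 went from 0.88 to 2.61, with the change lost without shoots replicate 1 (1.41) or roots replicate 1 (1.46), with log2(signal + 1) (1.77), with spiked-in scaling (1.27) and against 3, 6 and 12 h alone (0.88). SPS4F changed by 1.29 ± 0.19, SWEET15 by 1.29 ± 0.25, PMEPCRF by 1.23 ± 0.19 and CYP71B36 by 1.58 ± 0.25, of which that of SWEET15 was not called against 0.25, 0.5 and 1 h alone (0.24). Among the plastid-encoded genes 11 had a smaller and 1 a larger difference at 24 h, rpoC2 (-1.57) and psaA (-1.49) among the former.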

How the data were processed

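MAS5 produced the deposited intensity values, which are linear, per the submitters' processing notes. Its version was not given in the sources used here, and neither scanner files nor detection calls were used here. The trimmed mean signal was 100.007 to 100.01 on the 4 arrays of 24 h, so the intensities had been brought to a common level before they were deposited, and they were used as they are.

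From the 22810 probe sets, 64 control probe sets were left out. Tests used log2(signal + 10.7), where 10.7 is the 25th percentile over all arrays. A filter required both arrays of 1 or more of the 14 groups of organ and time to exceed their own 40th percentile, which 16263 probe sets passed. In R 4.3.3, limma 3.58.1 fitted 1 mean per group over all 28 arrays, which leaves 14 residual degrees of freedom, with eBayes (trend and robust). Contrasts were shoots minus roots at 24 h, the mean of that difference over the other 6 times, and the difference of both. P-values were adjusted by Benjamini-Hochberg over all probe sets kept, and calls made at 0.05. Genes were named from the platform annotation, which pairs 13513 probe sets with 1 gene, 503 with several and leaves 8794 unnamed here, and only probe sets with 1 gene were named. Gene order came from the RefSeq genes of TAIR10.1. Where several probe sets measured a gene, the one with the highest mean signal was used, and the second probe set of AT2G31110 differed in call.

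The text names the 12 largest differences in each direction, the members of the gene lists, the 3 largest in each direction of a family taken by a word in the annotation, and the 6 largest changes against the other times in each direction. The lists were chosen with earlier results of these data known. The plastid-encoded, NADH dehydrogenase-like, thioredoxin, SWEET, carrier, TBL, methionine sulfoxide reductase, tetraspanin, defensin, GH3, AGAMOUS-like, carboxypeptidase and IQ-domain families, the neighbouring pairs, and the other genes named with a symbol were added after their values had been seen. Alternatives changed the normalization, offset, filter, model, arrays and times compared, and scaling to the spiked-in controls was added after the data were seen.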

Additional observations from a re-analysis of the deposited data

Results flagged for a closer look

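The organ difference at 24 h differed from that at the other 6 times, by the limma test of the difference itself, for the genes below, and the values are the change in shoots minus roots on the log2 scale. The reason for these changes was not tested.

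Genes that moved towards roots were AT5G62360 (-3.66), AT1G15010 (-3.48), AT5G35735 (-3.11), AT3G01830 (-2.81), AT1G51090 (-2.79) and AT5G65300 (-2.56) among those without a name. Stress and wound genes of this direction were COR15A (-2.46), STZ (-2.3), COR15B (-2.16), OPCL1 (-2.01), LTI30 (-1.9), COR47 (-1.58), ORA47 (-1.15) and WRKY53 (-1.03). Plastid and pigment genes were rpoC2 (-1.57), psaA (-1.49), PORB (-1.33) and HEMA2 (-0.83). PORB, a protochlorophyllide oxidoreductase, read 197 and 245 in shoots and 32.3 and 38.8 in roots at 24 h. The starch enzymes PWD (-0.81) and DPE1 (-0.72), and XTH18 (-2.17), OCT1 (-1.19), UGT84A3 (-1.03), UGT71C5 (-0.65), MSRB9 (-0.94), MSRB3 (-0.61), LCR69 (-0.82) and BGLU44 (-0.81) also moved towards roots.

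Genes that moved towards shoots were AT1G55960 (2.63), AT2G27420 (2.58), AT3G28270 (1.89), AT1G60590 (1.8), AT2G37130 (1.78) and AT5G64120 (1.38). Defence genes of this direction were PDF1.4 (1.73), THI2.2 (0.94), THI2.1 (0.80) and PYK10 (0.74). Metabolic genes were SPS4F (1.29), SWEET15 (1.29), PMEPCRF (1.23), LYC (0.79), AOR (0.78), CHLM (0.61) and HCT (0.59). CYP71B36 (1.58), CYP71B5 (0.79), UGT74D1 (0.79), TRY (1.19) and CHX20 (0.56) completed them.

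Of the 50 changes, 16 lost their call in at least 1 fit without 1 array of 24 h. Without shoots 24 h replicate 1 these were AT2G37130 (1.45), CHLM (0.60), CHX20 (0.44), HCT (0.69), LCR69 (-0.65), MSRB3 (-0.47), ORA47 (-0.92), PDF1.4 (1.41), THI2.1 (0.63) and THI2.2 (0.97). Without shoots 24 h replicate 2 these were BGLU44 (-0.71), CHLM (0.62), HCT (0.49), MSRB9 (-0.67), THI2.2 (0.91), TRY (0.86) and XTH18 (-1.78). Without roots 24 h replicate 1 these were AOR (0.57), CHLM (0.40), CHX20 (0.57), DPE1 (-0.51), HCT (0.44), LCR69 (-0.63), MSRB9 (-0.63), ORA47 (-0.78), PDF1.4 (1.46), THI2.1 (0.87), THI2.2 (0.93) and XTH18 (-1.78). Without roots 24 h replicate 2 these were AT2G37130 (1.42), BGLU44 (-0.62), CHX20 (0.55), MSRB3 (-0.54), THI2.1 (0.72) and THI2.2 (0.94).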

How the results depend on the processing

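Scaling to the spiked-in controls left 2159 probe sets higher in shoots and 11538 higher in roots at 24 h, 822 and 2349 of them by at least 4-fold. It gave 82 changes towards shoots and 1709 towards roots against the other times, 39 and 773 of them of at least 1. It turned the 24 h difference of AT1G53210 (-0.18), AT2G31110 (-0.42), GH9A3 (-0.0050), GH9B7 (-0.35), HCT (-0.25), OCT5 (-0.097), PWD (-0.36), SWEET13 (-0.33), SWEET6 (-0.12), TMT3 (-0.038), UGT74D1 (-0.23), UGT78D2 (-0.50) and scpl26 (-0.18). Differences whose call this scaling ended include those of UGT71C4 (0.095), rpoC2 (0.19), rpl32 (0.24), DFR (0.35), UGT84A3 (0.38), GSA1 (0.38), TET10 (0.42), BGLU44 (0.50) and CRR22 (0.52). With log2(signal + 50), calls of at least 4-fold numbered 848 and 376, and changes of at least 1 numbered 74 and 184. With log2(signal + 1), 1648 were at least 4-fold higher in roots. Against 0.25, 0.5 and 1 h alone, changes of at least 1 numbered 239 towards shoots and 575 towards roots, and those of BGLU44 (0.19), DPE1 (0.38) and PWD (0.16) turned sign. Changes whose call ended there were those of AOR (0.54), CHLM (0.42), COR15B (-0.75), HCT (0.34), LCR69 (-0.34), MSRB9 (-0.53), PORB (-0.24), SWEET15 (0.24) and THI2.2 (0.23). Against 3, 6 and 12 h alone, 252 lay towards shoots, and calls ended for AT2G37130 (0.79), CHX20 (0.037), CYP71B5 (0.51), HEMA2 (-0.36), ORA47 (-0.51), PDF1.4 (0.88), PYK10 (0.26), THI2.1 (0.11), UGT71C5 (-0.41), WRKY53 (-0.51) and XTH18 (-0.47). Leaving out 1 array of 24 h at a time gave 10520 to 10768 calls at 24 h, 1140 to 2163 changes against the other times, 451 to 963 towards shoots and 683 to 1200 towards roots, and 141 to 234 and 295 to 453 of at least 1. The cause of these shifts was not tested, apart from fewer arrays where 1 was left out.

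Of the 260 named genes, 27 lost a call at 24 h in at least 1 fit without 1 array of 24 h. Deviations of same-numbered shoot and root replicates correlated by -0.097 to 0.046 over the 7 times. That showed no shared deviation, but it cannot tell whether same-numbered samples came from the same plants. With the replicate block 11552 probe sets were called at 24 h and 1915 changed against the other times. Fitting the 4 arrays of 24 h alone gave 10078 calls. Low signals limit what can be said of genes below the 40th percentile in both organs.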
